A study of Bos taurus with 6 samples.

Results

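Expression of 6 genes, 5 zinc finger genes and TRIM28, was described in the lactating mammary gland of Holstein heifers that differed in the cooling of their dams before birth. The genes were ZBTB47 (ENSBTAG00000017365), ZNF555 (ENSBTAG00000008397), ZNF134 (ENSBTAG00000038240), ZNF177 (ENSBTAG00000039493), ZNF395 (ENSBTAG00000000536) and TRIM28 (ENSBTAG00000006422), picked by name out of 24579 genes in the count files. All 6 passed the filter on low counts, as did 14724 genes in all. ZBTB47, ZNF555, ZNF134 and ZNF177 stand on the study's list of differentially expressed genes, which was made from these heifers and this contrast, so their values are a description and not independent evidence of a difference. ZNF395 and TRIM28 stand on the study's mammary gland methylation list, which used no RNA counts, although they too were picked with earlier results of these data known.

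RNA was sequenced from mammary biopsies taken on day 21 of the first lactation from 3 in utero heat stressed heifers (IUHT-H; heifers 9196, 9203 and 9204) and 3 in utero cooled heifers (IUCL-H; heifers 9202, 9214 and 9223). The dams of IUHT-H had shade alone and the dams of IUCL-H had shade with fans and soakers, over the final 6 to 7 weeks before calving. All heifers were Holsteins born in the same year and managed alike from birth, so the labelled difference between the groups was the environment of the dam. The study names a high rate of culling among in utero heat stressed heifers as a limitation. The IUHT-H were thus animals that had stayed in the herd, and the part of this selection in the levels was not tested. Each heifer gave 1 library of a whole biopsy.

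Zinc finger proteins of the C2H2 type bind DNA through repeated fingers that each hold a zinc ion, and they form one of the largest families of transcription factors in mammals. Many carry a KRAB domain, which recruits TRIM28 (also named KAP1), and TRIM28 in turn brings in the histone methyltransferase SETDB1, the heterochromatin protein HP1 and the NuRD deacetylase complex, so that the bound region is silenced. Other zinc finger proteins have other domains, such as the BTB domain of the ZBTB proteins, which mediates contacts between proteins.

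Total counts ran from 91696849 to 101361294 among IUCL-H and from 75754791 to 84969285 among IUHT-H, without overlap. The 10 most counted genes took between 64.7% and 74.7% of a heifer's counts, and TMM factors ran from 0.812 to 1.19. Levels are given as CPM, counts scaled to the TMM-normalized library size, and at these depths 3 counts correspond to 0.030 to 0.043 CPM. The study's cut-off, an unadjusted P-value of at most 0.01, is used as the threshold for a call. In edgeR's quasi-likelihood test 63 genes passed it, 0.428% of those tested. This is below the share of 0.01 expected if no gene differed, so a call is not by itself a sign of a difference. The number passing was 246 without IUCL-H 9202 and 225 without IUHT-H 9204. After Benjamini-Hochberg adjustment 0 genes (0%) stayed below 0.05 in this test, where 374 had been below 0.05 unadjusted. The numbers below 0.05 after adjustment were 9 with the exact test of edgeR, 11 with its likelihood ratio test and 16 with DESeq2. The tissue label could not be checked against its markers, because none of the planned markers of secretory or basal epithelium had an identifier in the name tables used.

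Among the factors on the differential expression list, ZBTB47 had its lower level among IUHT-H, and ZNF555, ZNF134 and ZNF177 had their higher level there. The difference was 1.39-fold for ZBTB47 and between 1.69-fold and 1.79-fold for the 3 others. ZNF395 and TRIM28 had overlapping values in the groups. In bulk tissue, fewer cells of a type and less RNA per cell cannot be told apart, so a lower or higher level can stand for either.

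**Figure D1:**
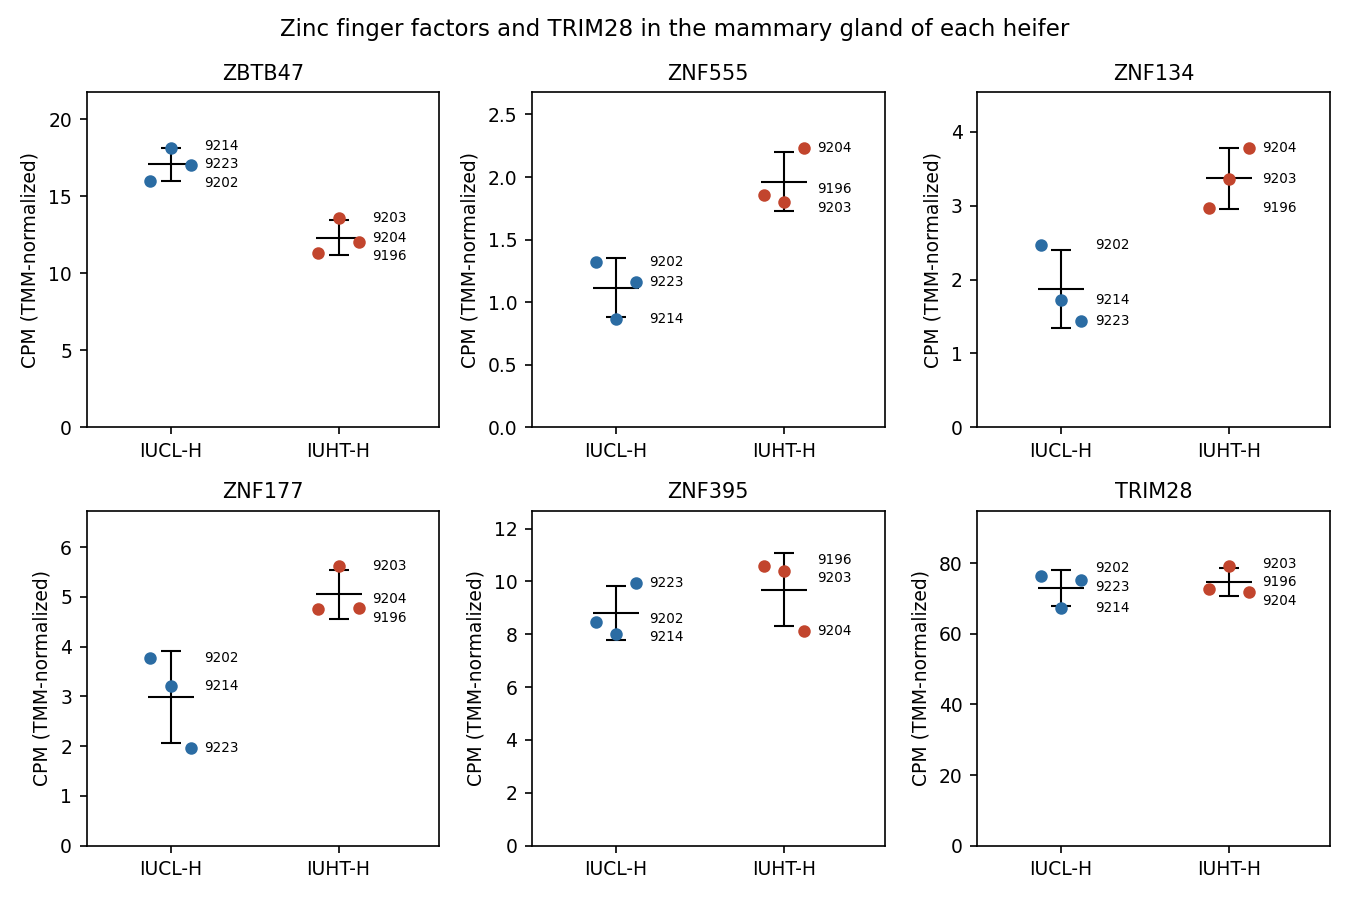
TMM-normalized CPM (y axis, from 0, with its own scale for each gene) of the 6 genes in each heifer, with the heifer number beside each point and a horizontal bar and whiskers for the mean ± SD of 3 heifers. IUHT-H values lie below all IUCL-H values for ZBTB47 (11.3 to 13.6 against 16.0 to 18.1) and above them for ZNF555, ZNF134 and ZNF177, and the groups overlap for ZNF395 and TRIM28.

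ZBTB47, a zinc finger protein with a BTB domain, was measured at 16.0, 18.1 and 17.1 CPM in IUCL-H 9202, 9214 and 9223, against 11.3, 13.6 and 12.1 CPM in IUHT-H 9196, 9203 and 9204. Each IUHT-H value lay below each IUCL-H value, and the gap between the groups was larger than the range within IUHT-H or within IUCL-H. The counts behind these values ran from 831 in IUHT-H 9204 to 1639 in IUCL-H 9214. The IUHT-H averaged 12.3 ± 1.13 CPM and the IUCL-H 17.1 ± 1.07 CPM (SD, n = 3 each), a log2 fold change of -0.47 (SE 0.12, 95% interval -0.74 to -0.20, adjusted P = 0.999 in edgeR's quasi-likelihood test). ZBTB47 passed the cut-off. It was the only one of the 6 genes with a lower mean in IUHT-H, and all 6 fits that left out 1 heifer gave the same direction.

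ZNF555, a KRAB zinc finger protein, had the smallest counts of the 6 genes, from 78 in IUCL-H 9214 to 169 in IUHT-H 9203. Its levels were 1.32, 0.864 and 1.16 CPM in IUCL-H 9202, 9214 and 9223, against 1.85, 1.80 and 2.23 CPM in IUHT-H 9196, 9203 and 9204. The groups did not overlap, and IUHT-H 9204 was the highest of the heifers. The IUHT-H averaged 1.96 ± 0.24 CPM and the IUCL-H 1.12 ± 0.23 CPM (SD, n = 3 each), a log2 fold change of 0.81 (SE 0.24, 95% interval 0.26 to 1.37, adjusted P = 0.999 in edgeR's quasi-likelihood test). ZNF555 passed the cut-off. Counting alone gives a coefficient of variation of 11.3% at 78 counts, against 20.8% observed within IUCL-H and 12.0% within IUHT-H.

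ZNF134, a zinc finger protein of the C2H2 type, was at 2.46, 1.73 and 1.44 CPM in IUCL-H 9202, 9214 and 9223, against 2.96, 3.37 and 3.78 CPM in IUHT-H 9196, 9203 and 9204. As for ZNF555, IUHT-H 9204 was highest and IUCL-H 9202 came nearest to the IUHT-H, and the groups did not overlap. Counts ran from 126 to 316, and ZNF134 passed the cut-off. The IUHT-H averaged 3.37 ± 0.41 CPM and the IUCL-H 1.88 ± 0.53 CPM (SD, n = 3 each), a log2 fold change of 0.84 (SE 0.24, 95% interval 0.29 to 1.40, adjusted P = 0.999 in edgeR's quasi-likelihood test).

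ZNF177, another KRAB zinc finger protein, was at 3.78, 3.21 and 1.97 CPM in IUCL-H 9202, 9214 and 9223, against 4.75, 5.61 and 4.78 CPM in IUHT-H 9196, 9203 and 9204. All IUHT-H were above all IUCL-H, and the low value of IUCL-H 9223 made the spread wide in that group (coefficient of variation 30.9%, against 9.68% in IUHT-H). Counts ran from 173 to 527. The IUHT-H averaged 5.05 ± 0.49 CPM and the IUCL-H 2.99 ± 0.92 CPM (SD, n = 3 each), a log2 fold change of 0.76 (SE 0.24, 95% interval 0.20 to 1.32, adjusted P = 0.999 in edgeR's quasi-likelihood test). ZNF177 missed the cut-off in this test, although it passed with edgeR's exact test, with the likelihood ratio test and with DESeq2. Without IUCL-H 9202, the heifer with the highest IUCL-H value, the log2 fold change of ZNF177 was 0.96 and it passed the cut-off, and without IUCL-H 9223, the lowest one, it was 0.53.

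ZNF395, a zinc finger factor known to be induced under low oxygen and to act on interferon-stimulated genes, was at 8.48, 8.0 and 9.95 CPM in IUCL-H 9202, 9214 and 9223, against 10.6, 10.4 and 8.12 CPM in IUHT-H 9196, 9203 and 9204. IUHT-H 9204 fell among the lower IUCL-H, and the other two IUHT-H were above every IUCL-H. The IUHT-H averaged 9.69 ± 1.36 CPM and the IUCL-H 8.81 ± 1.02 CPM (SD, n = 3 each), a log2 fold change of 0.14 (SE 0.15, adjusted P = 0.999 in edgeR's quasi-likelihood test). A two-sided exact permutation test of the ZNF395 means over the 20 splits of the heifers gave P = 0.30. The 95% interval of the fold ran from 0.867 to 1.40, below the estimates for ZNF555, ZNF134 and ZNF177. Those genes were listed for their difference, and their own intervals begin at 1.19, 1.22 and 1.145, inside that of ZNF395. A smaller change of ZNF395 than of these genes is therefore not shown. Of the planned gene lists for hypoxia and for the interferon response, each of 18 genes, only PFKFB3 and NFKBIA had identifiers and both stand on the study's differential expression list. PFKFB3, which drives glycolysis, had a log2 fold change of 0.71 (SE 0.24) and missed the cut-off, and NFKBIA, the inhibitor of NF-κB, had one of 0.80 (SE 0.22) and passed it.

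TRIM28, the corepressor, was at 76.5, 67.3 and 75.3 CPM in IUCL-H 9202, 9214 and 9223, against 72.8, 79.1 and 71.9 CPM in IUHT-H 9196, 9203 and 9204. The highest heifer was an IUHT-H and the lowest an IUCL-H. Between them, IUHT-H 9204 and 9196 lay below IUCL-H 9223 and 9202, opposite to the difference in means. Counts were between 4962 and 7693, where counting error is 1.42% or less. The IUHT-H averaged 74.6 ± 3.91 CPM and the IUCL-H 73.0 ± 5.0 CPM (SD, n = 3 each), a log2 fold change of 0.031 (SE 0.12, adjusted P = 0.999 in edgeR's quasi-likelihood test). The two-sided exact permutation test gave P = 0.70 for TRIM28, where 3 heifers against 3 cannot give less than 0.10. The 95% interval of the TRIM28 fold was 0.850 to 1.23, so a change beyond these bounds in either direction was not seen, and a smaller one was not detectable with 3 heifers a group. The sign of the TRIM28 difference turned when IUCL-H 9214 was left out (log2 fold change -0.025) or when IUHT-H 9203 was left out (-0.013).

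Across the 6 genes, 3 passed the cut-off (ZBTB47, ZNF555 and ZNF134), against 0.428% of all genes tested, and by direction 2 were higher and 1 lower, against 0.285% and 0.143% of all genes. In ZNF555, ZNF134 and ZNF177 every IUHT-H was above every IUCL-H, as in 3.14% of all genes, and in ZBTB47 every IUHT-H was below, as in 2.92%. Because these genes came from the list of differentially expressed genes, nothing can be read from how far their counts exceed those shares. Of the genes from the methylation list, ZNF395 and TRIM28, 0 passed the cut-off and both had overlapping groups. Neither was below 0.05 unadjusted in edgeR's quasi-likelihood test, and neither passed the cut-off with the exact test, the likelihood ratio test or DESeq2.

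**Figure D2:**
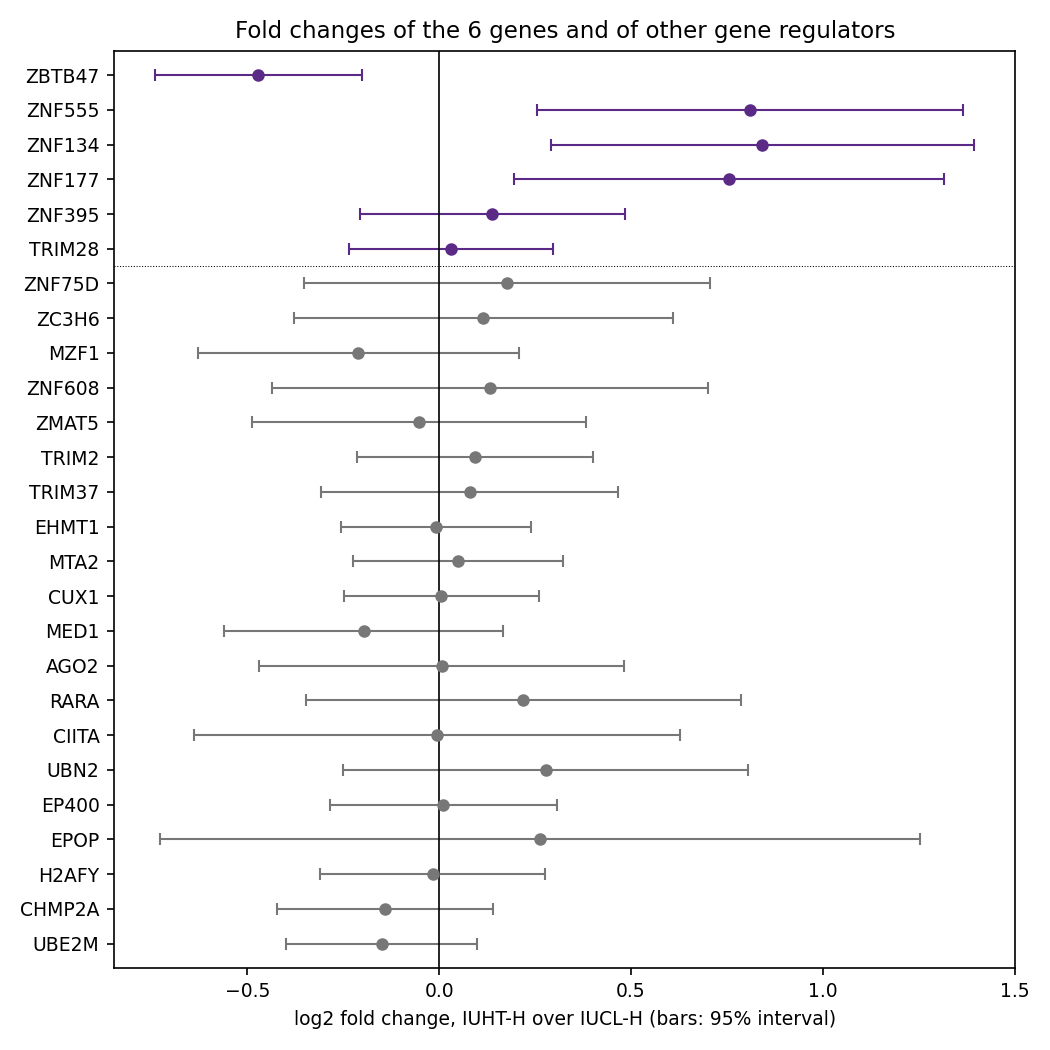
Log2 fold change of IUHT-H over IUCL-H (x axis) with its 95% interval (bars) from edgeR's quasi-likelihood fit, for the 6 genes (purple, above the dotted line) and for 18 other genes of gene regulation from the study's methylation lists (EHMT1, MTA2, ZNF608, ZMAT5, EP400, EPOP and H2AFY from bull calf liver alone) and the TRIM28 neighbours CHMP2A and UBE2M (grey). The intervals of ZBTB47, ZNF555, ZNF134 and ZNF177 do not reach 0, and those of ZNF395, TRIM28 and every grey gene do.

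The biological spread between heifers of a group, estimated over all genes by edgeR as a coefficient of variation, was small for TRIM28 (13.2%) and ZBTB47 (13.3%). Only 7.82% and 8.57% of genes tested had a smaller one, and the median over all genes was 19.1%. ZNF395 had 15.7%. ZNF555, ZNF134 and ZNF177 had 24.0%, 23.6% and 23.4%, larger than in 66.3%, 65.2% and 64.7% of genes. ZBTB47 thus reached the smallest P-value of the 6 with the smallest of the 4 differences. By P-value, ZBTB47 ranked 23 of the 14724 genes, ZNF134 ranked 47, ZNF555 ranked 62 and ZNF177 ranked 83.

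Each zinc finger count was also divided by the TRIM28 count of the same heifer, whether or not the protein has a KRAB domain, a ratio into which no normalization enters and which was chosen after the data had been seen. ZBTB47 had 209, 270 and 227 counts per 1000 TRIM28 counts in IUCL-H 9202, 9214 and 9223, against 156, 171 and 168 in IUHT-H 9196, 9203 and 9204. ZNF555 had 17.3, 12.8 and 15.4 against 25.5, 22.8 and 31.0 in the same order of heifers. ZNF134 had 32.2, 25.7 and 19.1 against 40.7, 42.5 and 52.6. For each of these genes the groups stayed apart. ZNF177 stayed apart as well, with 49.4, 47.7 and 26.2 counts per 1000 TRIM28 counts in IUCL-H and 65.2, 71.0 and 66.5 in IUHT-H. The ratios of the means were 1.43 in favour of IUCL-H for ZBTB47 and 1.74, 1.76 and 1.64 in favour of IUHT-H for ZNF555, ZNF134 and ZNF177. ZNF395 per 1000 TRIM28 counts overlapped, at 111 to 132 in IUCL-H and 113 to 145 in IUHT-H, with means in a ratio of 1.07. Because TRIM28 itself ran only from 67.3 to 79.1 CPM, these ratios largely restate the CPM values and are not separate evidence of a difference.

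**Figure D3:**
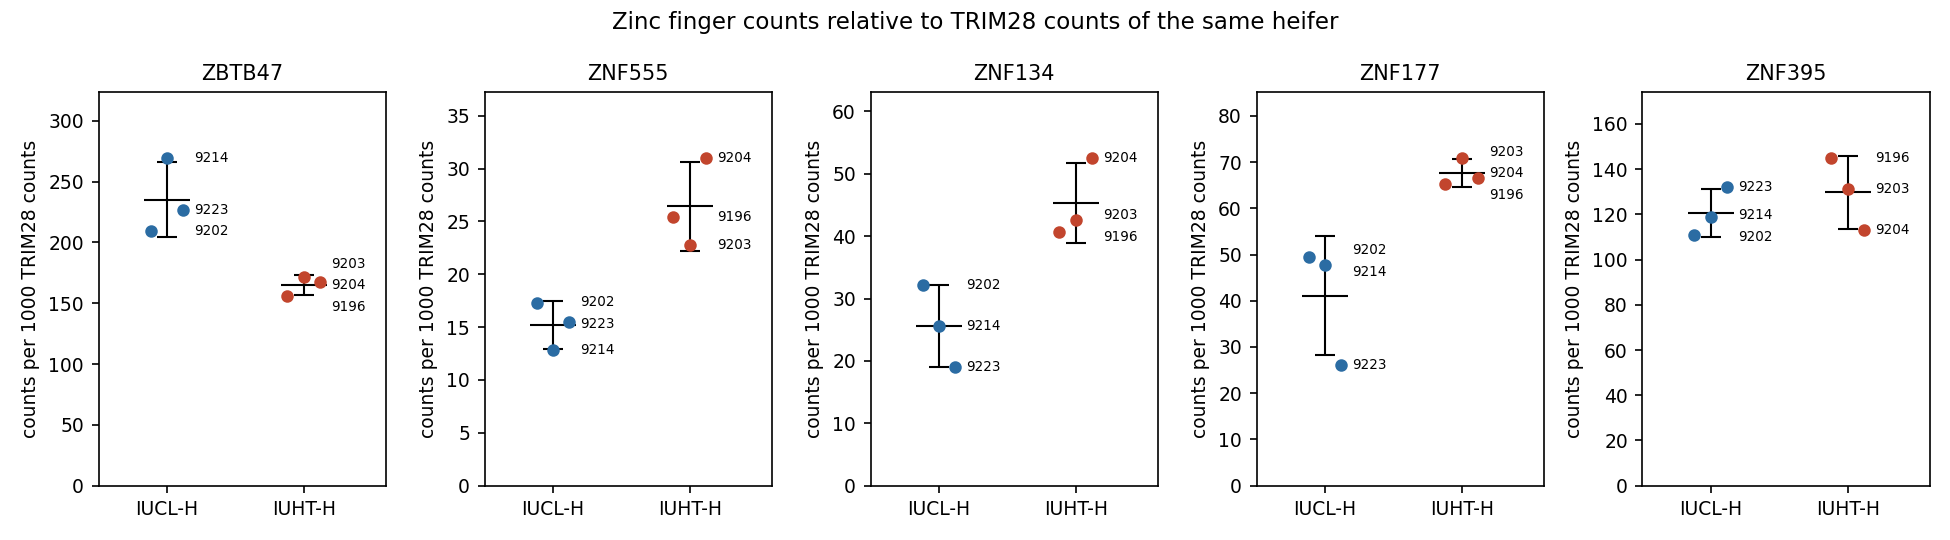
Counts of each zinc finger gene per 1000 TRIM28 counts of the same heifer (y axis, from 0, with its own scale for each gene), with heifer numbers and the mean ± SD of 3 heifers. The IUHT-H means are 165 against 235 for ZBTB47, 26.4 against 15.2 for ZNF555, 45.3 against 25.7 for ZNF134 and 67.6 against 41.1 for ZNF177, and the groups do not overlap in these 4 genes.

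A correlation over the 6 heifers could be tested for 1 of the 15 pairs of genes, TRIM28 with ZNF395, since in the other 14 pairs at least one gene had groups that did not overlap and a pooled correlation would restate the difference between groups. For TRIM28 and ZNF395, Pearson's r was 0.59 (exact permutation P = 0.20, two-sided, over 720 pairings) and Spearman's rho was 0.60 (exact permutation P = 0.24). As 1 pair was tested, the adjusted P-values equal these. Without the 2 heifers farthest from the median TRIM28 level, IUHT-H 9203 and IUCL-H 9214, r was -0.0028, and without the 2 farthest from the median ZNF395 level, IUHT-H 9196 and IUCL-H 9214, it was 0.74, so the value of r depended on which heifers were left out. With counts scaled by library size only, r was 0.94 (exact permutation P = 0.0069) and rho was 0.94 (exact permutation P = 0.017). On that scale each heifer's TMM factor (0.812 to 1.19) stays in the levels of both genes. These values therefore also hold the scaling that the genes share, and co-regulation cannot be read from them.

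**Figure D4:**
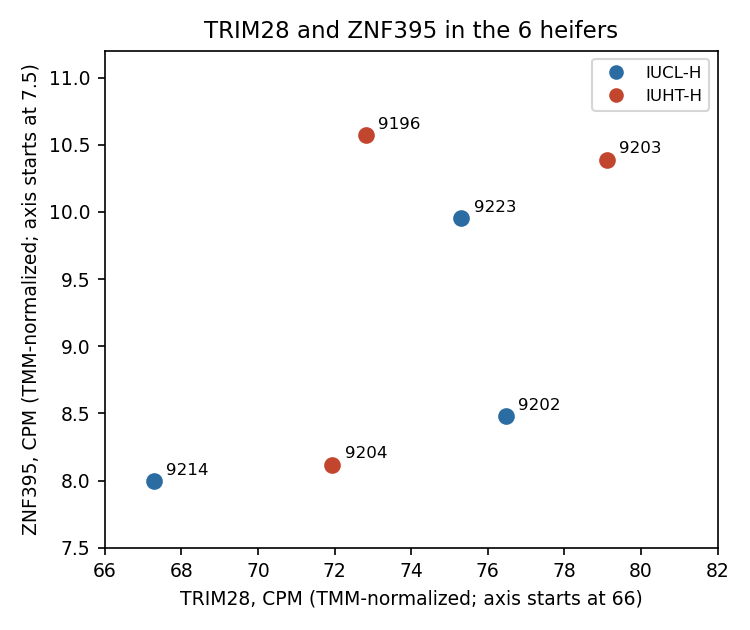
TRIM28 level (x axis, CPM, axis starting at 66) against ZNF395 level (y axis, CPM, axis starting at 7.5) in the 6 heifers, coloured by group. IUHT-H 9203 is high and IUCL-H 9214 low in both genes, IUHT-H 9196 has the highest ZNF395 at a middle TRIM28 level, and the groups are mixed along both axes.

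Within the groups, single heifers did not stand at the same end for all genes. IUHT-H 9204 was the highest of its group for ZNF555 and ZNF134 and the lowest for ZNF395 and TRIM28. IUCL-H 9214 was the highest of its group for ZBTB47 and the lowest for ZNF555, ZNF395 and TRIM28. IUCL-H 9202 was the highest of its group for ZNF555, ZNF134, ZNF177 and TRIM28 and the lowest for ZBTB47, and IUCL-H 9223 was the lowest for ZNF134 and ZNF177. The order of the heifers thus differed between ZNF555, ZNF134 and ZNF177, although all 3 had the higher mean in IUHT-H.

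Leaving out each heifer kept the sign for ZBTB47, ZNF555, ZNF134, ZNF177 and ZNF395. The log2 fold change ranged from -0.55 to -0.42 for ZBTB47, from 0.66 to 0.95 for ZNF555, from 0.68 to 1.09 for ZNF134 and from 0.53 to 0.96 for ZNF177. The number of the 6 genes past the cut-off was 4 without IUCL-H 9202, 1 without IUHT-H 9203 and 0 without any one of the other four heifers. Over all genes, 246 of 14869 passed without IUCL-H 9202, 46 of 14943 without IUHT-H 9203 and 225 of 15070 without IUHT-H 9204, where none of the 6 genes passed. Scaling by library size only moved the median log2 fold change of all genes from 0.0028 to 0.13. On that scale ZBTB47 was at -0.33, ZNF555 at 0.90 and ZNF134 at 0.93, and none of them passed the cut-off. The median of all genes rose by about as much as the values of ZBTB47, ZNF395 and TRIM28 did.

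**Figure D5:**
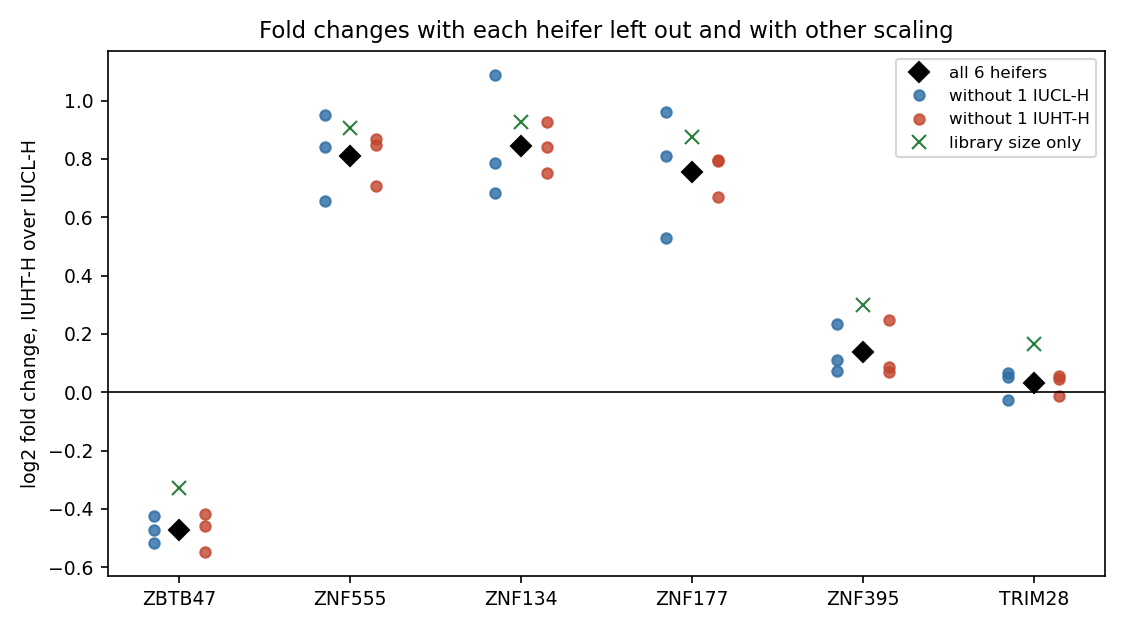
Log2 fold change of IUHT-H over IUCL-H (y axis) for the 6 genes with all 6 heifers (black diamonds), with 1 IUCL-H left out (blue), with 1 IUHT-H left out (red) and with counts scaled by library size only (green crosses). ZBTB47 stays below 0 and ZNF555, ZNF134, ZNF177 and ZNF395 stay above it in all of these fits, and TRIM28 lies on both sides of 0.

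Other zinc finger and tripartite motif genes of the study's methylation lists were looked at beside these values. They were ZNF75D, ZC3H6, MZF1, TRIM2 and TRIM37 from the list for heifer mammary gland, and ZNF608 and ZMAT5 from the list for the liver of bull calves, another tissue from other animals. Of the 7, 0 passed the cut-off when tested by edgeR's quasi-likelihood fit. None was below 0.05 unadjusted, and none passed under the alternatives run (other tests, DESeq2 among them, scalings and filters and 1 heifer left out). Their log2 fold changes ran from -0.21 (MZF1, a zinc finger factor with a SCAN domain, SE 0.18) to 0.18 (ZNF75D, SE 0.23), with a median of 0.093 against 0.0028 for all genes tested, and their groups overlapped in every case. With 0.428% of all genes past the cut-off and 6.06% with separated groups, counts of 0 among 7 genes say nothing particular about them. Of the TRIM28 corepressor list, 3 of 24 genes had identifiers, TRIM28 itself, EHMT1 and MTA2, the last pair named from the bull calf liver list. EHMT1, a histone H3 lysine 9 methyltransferase, had a log2 fold change of -0.0074 (SE 0.11), and MTA2, a subunit of the NuRD complex, had one of 0.050 (SE 0.12). SETDB1, the HP1 genes, and the deacetylases named for this list could not be looked up.

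In the order of genes of the ARS-UCD2.0 assembly, TRIM28 is followed by CHMP2A, UBE2M and MZF1, and all 4 genes stand on the mammary gland methylation list. The study also assigned to a gene cytosines lying upstream or downstream of it, so neighbours may be listed through the same cytosines. Whether these genes share any was not looked at. CHMP2A, a subunit of the ESCRT-III complex, and UBE2M, the conjugating enzyme for NEDD8, had log2 fold changes of -0.14 (SE 0.12) and -0.15 (SE 0.11). Thus none of the 4 neighbours passed the cut-off, with means slightly higher in IUHT-H for TRIM28 and lower for the 3 others. ZNF134 lies on the same chromosome as TRIM28 with 48 genes between them, and ZNF555 and ZNF177 share a chromosome with 314 genes between them.

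JCHAIN, the joining chain of immunoglobulins made by plasma cells, was the only 1 of 8 planned leukocyte markers with an identifier. JCHAIN stands on the study's differential expression list, so its values are a description and not independent evidence of a difference. It was at 37.9, 36.7 and 69.6 CPM in IUCL-H 9202, 9214 and 9223, against 142.4, 223 and 81.0 CPM in IUHT-H 9196, 9203 and 9204, so that it was higher in all 3 IUHT-H (log2 fold change 1.63, SE 0.39), and it passed the cut-off. Among the IUHT-H, heifer 9204 had the least JCHAIN and the most ZNF555 and ZNF134, while heifer 9203 had the most of both JCHAIN and ZNF177. The part of leukocytes in the levels of the 6 genes was not tested. Reads shared between near-identical zinc finger genes may also be lost or counted for the wrong gene. The library kit is not stated to keep strand, so overlapping and antisense genes cannot be told apart from the genes named here.

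The genes most like each of the 6 in their order and level over the heifers were found by Pearson's r of log2 CPM, over 6 heifers and 11897 genes with a mean of at least 1 CPM, as a description. With so few heifers, between 58 (ZBTB47) and 144 (ZNF395) genes had r of at least 0.9, and for genes with separated groups r also holds the difference between the groups. Most of the closest genes had no name in the tables used. Among the 3 closest of all genes, ARHGEF37 was named for ZBTB47 (r = 0.991) and CD244 for ZNF555 (r = 0.984). Those tables hold the study's differentially expressed or methylated genes, so the named genes do not stand for all genes. A gene listed for its difference can therefore be close to another listed gene through that choice alone. Among these 211 named genes, HOXA9 was closest to ZNF134 (r = 0.952), TMEM220 to ZNF177 (r = 0.968) and TFF3 to TRIM28 (r = 0.956). ZNF134 was itself the third closest named gene to ZNF177 (r = 0.933), a pair in which both genes were higher in IUHT-H. As the groups did not overlap in either gene, this r restates the difference between groups, and no correlation of the pair was tested.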

How the data were processed

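The authors sequenced the libraries (NEBNext Ultra RNA kit, paired-end reads on an Illumina HiSeq instrument) and deposited a raw count of reads per Ensembl gene for each of the 6 heifers. The submitters' processing notes name FastQC, TopHat2 (version 2.0.13) and HTSeq and the build UMD3.1, while the study's methods name bosTau7. The deposited counts were neither normalized nor filtered, and all were used. The study gives a larger IUCL-H group, and heifers beyond these 6 were not analysed here. Names were taken from the study's gene tables (365 genes), because the RefSeq table at hand (ARS-UCD2.0) holds no Ensembl identifiers. Of 145 symbols in the planned lists, 6 had an identifier, so the planned counts over lists and zinc finger families (6 of 344 names in RefSeq matched) are void. Gene lengths were not used, and levels were not compared between genes.

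Genes were filtered with filterByExpr of edgeR (version 4.0.16, R 4.3.3), scaled by TMM and tested with the quasi-likelihood test over all 6 heifers without covariates. The cut-off was an unadjusted P-value of at most 0.01, as in the study, and P-values were adjusted by the Benjamini-Hochberg method over 14724 genes. Heifers are separate animals, and no 2 libraries of a group agreed within counting error. Alternatives were edgeR's exact and likelihood ratio tests, DESeq2 (version 1.42.0), a robust fit, RLE factors, library size only, other filters, leaving out the 10 most counted genes and leaving out each heifer. Unadjusted P-values of single genes are not printed. Means of CPM were also compared by exact permutation. The scripts were tested on simulated data. The members and lists were chosen with earlier results of these data known. Named genes were the 6 genes, genes of the planned lists that passed the cut-off (NFKBIA and JCHAIN), SETDB1 and other set partners of TRIM28 (none had an identifier), ZNF75D, ZC3H6, MZF1, TRIM2 and TRIM37, and genes among the 3 most like each of the 6, of which the named gene closest to ZNF395 is not reported here. EHMT1, MTA2 and PFKFB3 were on the planned lists but outside this rule, and they and the other genes named, such as CHMP2A, UBE2M, ZNF608 and ZMAT5, were added after the files had been seen.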

Additional observations from a re-analysis of the deposited data

How the results depend on the processing

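No paired analysis was possible because the labels give each heifer an identity number and no replicate number shared by IUHT-H and IUCL-H. The RLE and robust fits and both filters on low counts kept the calls of the 6 genes. With library size only, the log2 fold change was -0.33 for ZBTB47, 0.90 for ZNF555 and 0.93 for ZNF134, none past the cut-off, so 0 of the 6 genes passed, and 81.8% of the genes past the cut-off were higher in IUHT-H against 66.7% with TMM. With the 10 most counted genes left out, ZNF555 was at 0.81 and missed the cut-off narrowly. ZNF177 passed it at 0.76 with the exact test, 0.76 with the likelihood ratio test and 0.75 with DESeq2. The cause was not tested. The genes past the cut-off numbered 108, 112 and 124 with these 3 tests, and 38 (without IUCL-H 9214) to 246 (without IUCL-H 9202) with 1 heifer left out. With 1 heifer left out, the log2 fold changes ranged from -0.55 to -0.42 for ZBTB47, 0.66 to 0.95 for ZNF555, 0.68 to 1.09 for ZNF134, 0.53 to 0.96 for ZNF177, 0.070 to 0.25 for ZNF395 and -0.025 to 0.066 for TRIM28, which was -0.013 without IUHT-H 9203, and 0 to 4 of the 6 genes passed. The correlation of TRIM28 with ZNF395 was 0.94 with library size only, where both genes keep the TMM factor of each heifer. It was -0.0028 without the 2 heifers farthest on TRIM28. Without the 2 farthest on ZNF395, a setting chosen after seeing the data, it was 0.74. ZNF555, with 78 to 169 counts, had the least depth.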
